A study of Mus musculus with 15 samples.

Results

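The genes for the proteins of the cytosolic ribosome were followed across 8 sorted populations of differentiating mouse embryonic stem cells. They were chosen by name alone: Rpl or Rps followed by a number, with Rpsa, Rplp0, Rplp1 and Rplp2 added and rows named as pseudogenes left out. This gave 89 of the 56092 named genes in the table, 53 of the large subunit and 36 of the small subunit. Of these, 87 passed the filter on low values (at least 5 CPM, read counts scaled to a library total of 1000000, in at least 2 libraries). Rpl3l and Rpl10l did not pass; Rpl3l was listed at 0 to 0.252 CPM and Rpl10l at 0.675 to 6.51 CPM.

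The cells were of the STR-KI line, which carries mCherry at 1 Sox2 allele and GFP at 1 Tbxt allele (Sox2::mCherry/WT, Tbxt::GFP/WT), so that neural and mesodermal fates could be sorted by reporter. In all groups, 10 ng/mL FGF2 was given for 48 h and FGF2 with 5 µM CHIR99021, an activator of WNT signalling, for a further 24 h. Neuromesodermal progenitors (NMPs, the bipotent cells of the tail bud) were sorted at this point as cells positive for both reporters (n = 3). Sox2+ cells (n = 2) and Tbxt+ cells (n = 2) were sorted after a further 48 h in FGF/CHIR. The 7 d groups were Sox2+ cells (n = 2) and double-negative (DN) cells (n = 1) of Sox2-derived cultures in FGF, Sox2+ cells (n = 1) and DN cells (n = 1) of Sox2-derived cultures in FGF/CHIR, and DN cells of Tbxt-derived cultures in FGF/CHIR (n = 3). The labels do not say whether libraries of a group came from separate cultures, so p-values measure only the spread between these libraries. All groups share 1 cell line, and the 3 groups of 1 library enter no test of their own.

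The depth implied by the smallest step of the CPM values was 3.43 to 9.88 M reads (M, 1000000 reads) in 14 libraries and 0.799 M in replicate 2 of the 7 d FGF Sox2+ cells, where 3 reads correspond to 3.76 CPM. Sox2 was at 164 to 241 CPM in NMPs, 217 and 221 CPM in 48 h Sox2 cells, 34.2 and 38.5 CPM in 48 h Tbxt cells, 388 and 390 CPM in 7 d FGF Sox2+ cells and 0 to 1.46 CPM in 7 d Tbxt-derived cells. Tbxt was at 284 to 445 CPM in NMPs, 216 and 222 CPM in 48 h Tbxt cells and at most 32.1 CPM in every other library. The groups therefore carried the reporters' own genes as labelled. The summed CPM of 7 mesenchyme markers was 6368 to 7793 in 7 d Tbxt-derived cells and 2400 in 7 d FGF/CHIR DN cells. That of 6 endoderm markers was 1164 in 7 d FGF DN cells and 187 in 7 d FGF/CHIR DN cells. The 5 pluripotency markers summed to 225 to 330 in NMPs and 339 in 7 d FGF/CHIR DN cells. The part of these cell types in the ribosomal values was not tested, and in bulk RNA fewer cells of a type and less RNA per cell cannot be told apart.

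Ribosomal proteins coat the ribosomal RNA of the small subunit, which decodes the mRNA, and of the large subunit, which forms peptide bonds and passes the chain through its exit tunnel. Their mRNAs are among the most abundant in a growing cell. Most begin with a run of pyrimidines, the terminal oligopyrimidine (TOP) element, through which mTOR signalling controls their translation. Several members have a second gene copy of restricted or variable use, and mice with a mutation in 1 allele of a few members show defects of the axial skeleton.

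The start regions of 6 members that departed from the sum in a comparison below (Rpl28, Rps27l, Rpl39l, Rps28, Rps12 and Rps18) and of Rps27 and Rpl22l1, which belong to paralog pairs and did not depart, are printed first, because the pyrimidine run is the feature the family is known for. Promoter windows from RefSeq (GRCm38.p6) reached from 250 bases before to 50 bases after the start and matched 64 of the 89 members. The 30-base windows below, 5′ to 3′ on the gene's strand, begin 10 bases before the listed start, and capitals mark a run of at least 6 C or T that includes the start or, in Rps27l, the letters CCGGAAG, which contain the core bound by ETS-family factors.
Rps27: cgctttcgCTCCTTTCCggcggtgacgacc
Rpl28: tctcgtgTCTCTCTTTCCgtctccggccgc
Rps27l: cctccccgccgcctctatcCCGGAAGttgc
Rpl39l: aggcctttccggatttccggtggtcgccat
Rpl22l1: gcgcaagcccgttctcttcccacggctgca
Rps28: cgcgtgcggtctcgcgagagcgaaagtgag
Rps12: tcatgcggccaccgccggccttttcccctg
Rps18: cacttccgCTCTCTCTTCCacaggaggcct
They lie at chr3:90213629-90213658 (Rps27, minus strand), chr7:4792955-4792984 (Rpl28, plus), chr9:66946076-66946105 (Rps27l, plus, the first of 2 listed starts), chr16:10170218-10170247 (Rpl39l, plus), chr3:28805498-28805527 (Rpl22l1, plus), chr17:33824543-33824572 (Rps28, minus), chr10:23787190-23787219 (Rps12, minus) and chr17:33955646-33955675 (Rps18, minus), each spanning the promoter and the first bases of the first exon. Such a run through the listed start was found in 20 of 64 members (31.3%) and in 2293 of 27025 genes with a window (8.48%). CCGGAAG on either strand of that window was found in 26 members (40.6%) against 9.93% of genes, and AAGATGGC, the core of the YY1 motif, in 6 (9.38%) against 3.19%. The 3 paralogs printed (Rps27l, Rpl39l and Rpl22l1) had no run through the listed start. Of their partners, Rps27 had a run of 9 bases. Rpl39 had only 5 pyrimidines in a row there, under the limit of 6, and Rpl22 had no run at any listed start. Of the 6 departing members printed, Rpl28 and Rps18 had a run, of 11 bases each, and they departed in opposite directions in the Tbxt-derived cells described below. A match describes these letters only, and a listed start can differ from the start used in these cells.

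The summed CPM of the 89 members was largest in the progenitors and smallest in the 7 d Tbxt-derived cells. It took 16.9%, 14.6% and 16.6% of all CPM in the 3 NMP libraries and 16.6% and 14.8% in the 48 h Sox2 libraries. It took 14.96% and 13.4% in the 48 h Tbxt libraries, which overlapped both other early groups. At 7 d the sum was 12.8% and 12.7% in FGF Sox2+ cells, 12.97% in Sox2+ cells of the FGF/CHIR cultures, 13.04% in their DN cells and 12.04% in FGF DN cells. The 3 libraries of 7 d Tbxt-derived cells held 10.5%, 11.2% and 10.5%, below every other library of the study. Group means were 16.02% ± 1.27 (SD, n = 3) in NMPs, 15.7% ± 1.26 (SD, n = 2) in 48 h Sox2 cells, 14.2% ± 1.10 (SD, n = 2) in 48 h Tbxt cells, 12.7% ± 0.073 (SD, n = 2) in 7 d FGF Sox2+ cells and 10.7% ± 0.431 (SD, n = 3) in 7 d Tbxt-derived cells. Libraries of NMPs, 48 h Sox2 cells and 48 h Tbxt cells overlapped, although the means of 48 h Sox2 and 48 h Tbxt cells lay further apart than either SD, while the 2 later groups stood apart from these and from each other.

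**Figure D1:**
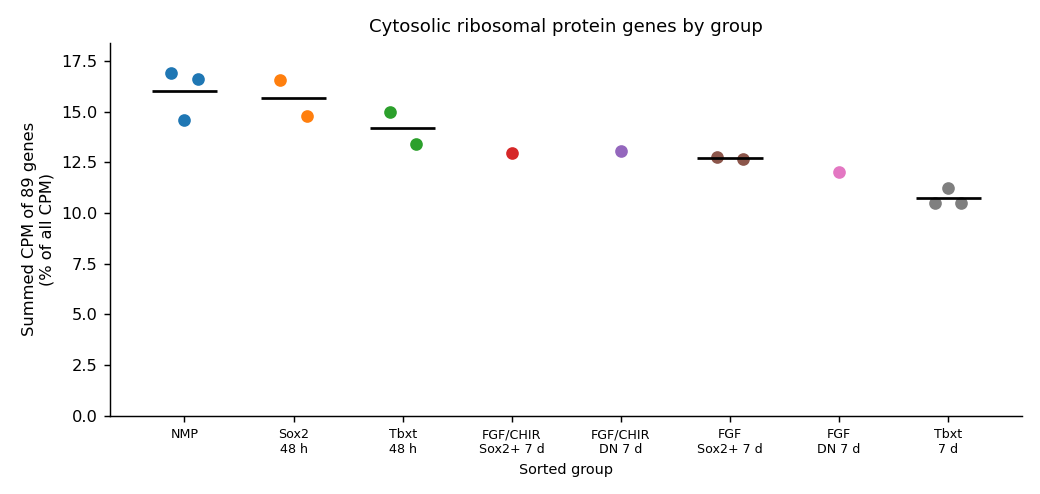
Summed CPM of the 89 ribosomal protein genes as a percentage of all CPM (y axis) in each of the 8 sorted groups (x axis); points are libraries and horizontal lines mark the means of groups with 2 or more. The 7 d Tbxt-derived libraries, between 10.5% and 11.2%, lie below all others, and the NMP libraries spread from 14.6% to 16.9%.

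In numbers, the sum of 7 d Tbxt-derived cells was 24.2% below that of 48 h Tbxt cells (log2 ratio -0.40) and 15.4% below that of 7 d FGF Sox2+ cells (log2 ratio -0.24), with no overlap between libraries. In 7 d FGF Sox2+ cells it was 19.0% below that of 48 h Sox2 cells (log2 ratio -0.30), again with no overlap. At the early stage the 48 h Tbxt cells were 11.5% below NMPs (log2 ratio -0.18) and 9.61% below 48 h Sox2 cells (log2 ratio -0.15), and 48 h Sox2 cells were 2.04% below NMPs (log2 ratio -0.03), with overlapping libraries each time. No p is given for the sum, since it is a score over members. The ratio of summed large-subunit to small-subunit CPM stayed between 0.991 and 1.081 in the 15 libraries, so both subunits took part. Mitochondrially encoded transcripts made up 4.04% to 6.98% of CPM and were at 6.24% to 6.98% in 7 d Tbxt-derived cells. Named nuclear genes held 934358 and 938205 CPM in 48 h Tbxt cells and 918936, 920399 and 926600 CPM in 7 d Tbxt-derived cells. The part of mitochondrial transcripts in the lower sum was not tested.

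Single genes were then tested in 1 limma fit of log2(CPM + 1) across all 12943 genes that passed the filter, with Benjamini-Hochberg adjustment over all of them and a threshold of 0.05. A second fit, after every library was divided by its member sum, tested which genes departed from the sum. By construction this division holds the members as a set near 0 and shifts all other genes. From 48 h to 7 d in Tbxt-derived cells the median change relative to the sum was 0.08 for members and 0.46 for all genes. For 7 d FGF Sox2+ against 48 h Sox2 cells it was 0.05 and 0.45. Shares of all genes on this scale are therefore no like background for the members. In the text a change in CPM and a change relative to the sum are both log2 differences, and a fold change understates the change of genes near 1 CPM. The 6 comparisons share libraries, so their counts are not independent.

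The change from 48 h to 7 d in Tbxt-derived cells, from mesoderm to cells with mesenchyme markers, touched the most members. In CPM, 41 of 87 members fell and 1 (Rpl28) rose, where 23.5% of all genes fell and 30.7% rose. The median member changed by -0.31 against 0.09 for all genes, and 76 of 87 had a negative sign. Departures from the sum were upward in 23 members and downward in 10, against 55% of all genes in either direction. Without replicate 2 of the 48 h Tbxt cells 7 members departed, and without replicates 2 and 3 of the 7 d cells 20 and 16. The departures were small for most members, since 49 of 87 stayed within 0.25 of the change of the sum.

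Rps27l, a paralog of Rps27 that is also known as a p53 target, departed the furthest downwards among the members named by rule here. It was at 2702 and 3343 CPM in 48 h Tbxt cells and at 1086, 988 and 777 CPM in 7 d Tbxt-derived cells. The groups lay far apart, with a change in CPM of -1.67 ± 0.15 (SE; limma adjusted p = 1.47e-06) and a change relative to the sum of -1.28 ± 0.15 (limma adjusted p = 1.49e-05). Both calls held under every alternative tried. Rpl12, a protein at the base of the stalk, was at 1932 and 1810 CPM and then at 1068, 1078 and 979 CPM. Its libraries did not overlap and it fell by more than the sum, with a change relative to the sum of -0.45 ± 0.09 (limma adjusted p = 0.0011). Rps12, of the small subunit, went from 5640 and 6189 CPM to 3296, 3445 and 3422 CPM, which also put every 7 d library below both 48 h libraries. Its change relative to the sum was -0.40 ± 0.10 (limma adjusted p = 0.00373), a call that was lost without replicate 2 of the 48 h Tbxt cells (adjusted p = 0.0677). The low share of Rps12 was not particular to these cells. Per 1000 CPM of the members' sum it was at 30.6 to 32.6 in 7 d Tbxt-derived cells. It was at 32.1 and 32.8 in the 7 d Sox2+ and DN libraries of the Sox2-derived FGF/CHIR cultures. In 7 d FGF Sox2+ cells it was at 39.5 and 37.7. Rpl41, the smallest protein of the ribosome, was at 5114 and 5742 CPM and then at 2846, 3082 and 2779 CPM. Its change relative to the sum was -0.50 ± 0.12 (limma adjusted p = 0.00384), also lost without that replicate (adjusted p = 0.0705).

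Rpl28, of the large subunit, moved the other way. It was at 597 and 385 CPM in 48 h Tbxt cells and at 662, 641 and 679 CPM in 7 d Tbxt-derived cells, so that the 7 d libraries were both higher and closer together. Relative to the sum it rose by 0.86 ± 0.14 (limma adjusted p = 0.000172), and this held under every alternative. Its rise in CPM of 0.46 ± 0.16 (limma adjusted p = 0.0235) was lost without replicate 2 of the 48 h Tbxt cells (adjusted p = 0.42), without replicate 3 of the 7 d cells (adjusted p = 0.0587) and with median-of-ratios size factors (adjusted p = 0.073). Rpl14 was at 1638 and 1185 CPM and then at 1466, 1663 and 1771 CPM, which overlapped in CPM, and rose by 0.62 relative to the sum. Rps16 (0.48) and Rps15 (0.49), both of the small subunit, rose likewise relative to the sum. The calls for Rpl14, Rps15 and Rps16 were lost without replicate 2 of the 48 h Tbxt cells, those for Rps15 and Rps16 also without replicate 3 of the 7 d cells, and that for Rps15 also without replicate 1 or 2 of the 7 d cells or with the median member as reference.

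**Figure D2:**
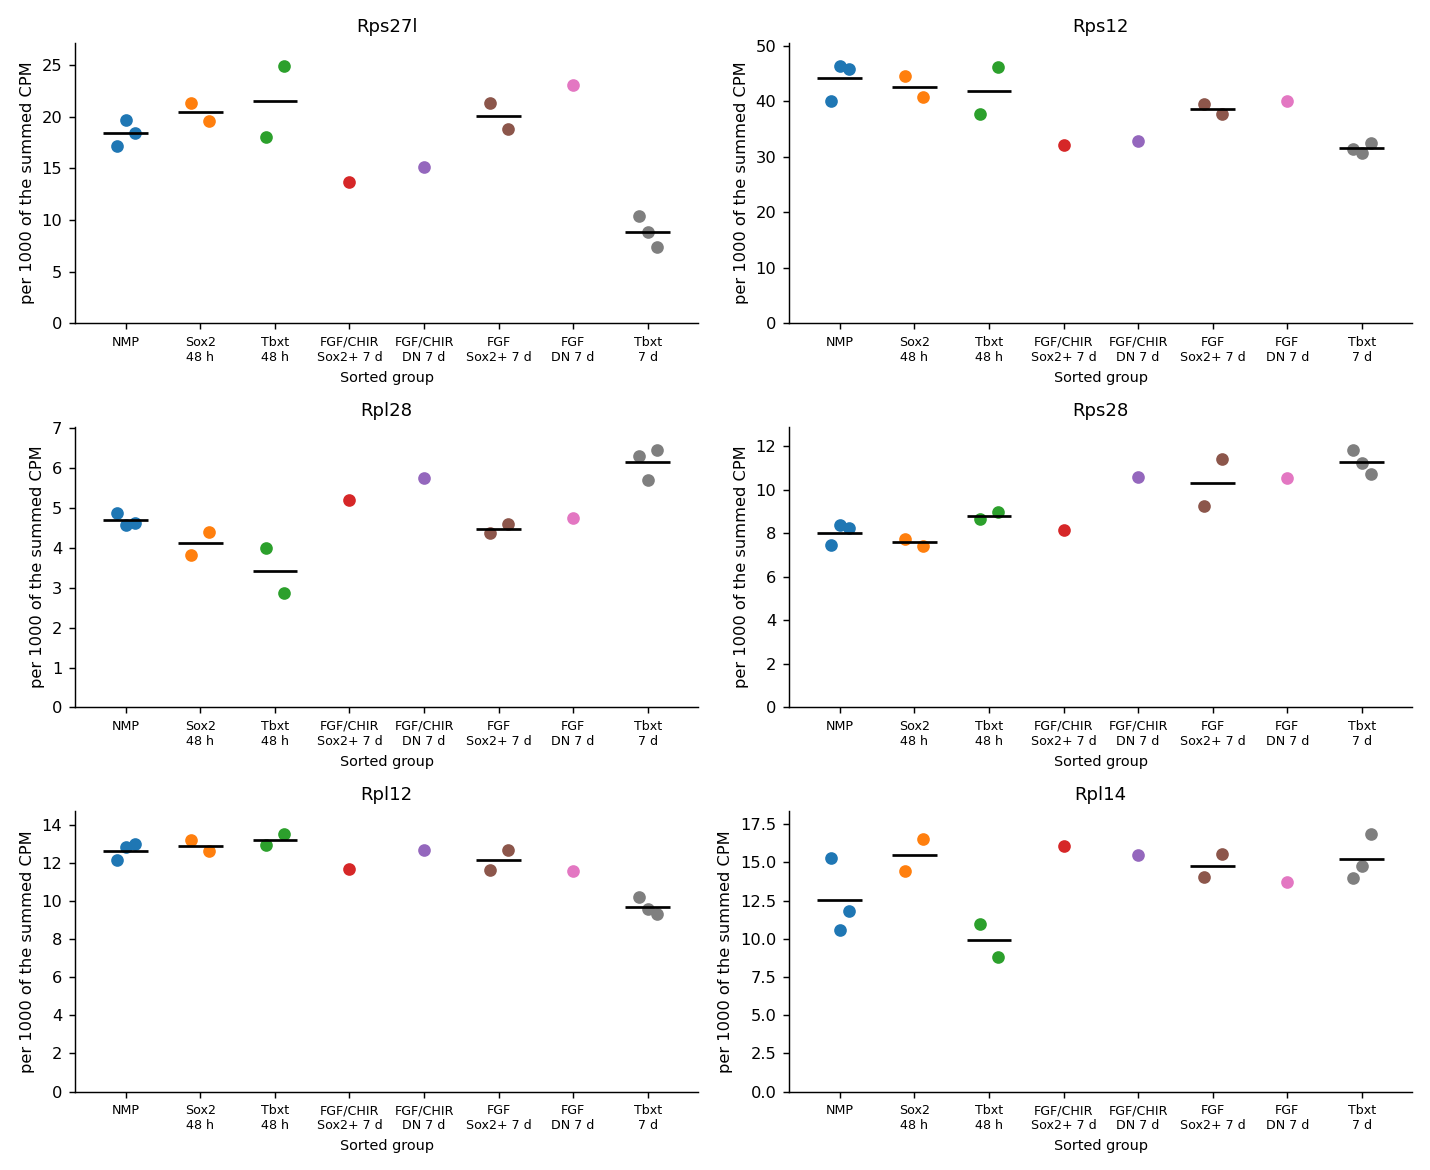
Level of 6 members per 1000 CPM of all members' summed CPM (y axis, from 0) in each of the 8 groups (x axis); points are libraries and horizontal lines are means of groups with 2 or more. Rps27l lies at 7.39 to 10.4 in the 7 d Tbxt-derived libraries against 18.1 and 24.9 in the 48 h Tbxt libraries, while Rpl28 lies at 5.71 to 6.46 against 3.99 and 2.87.

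The 2 end points at 7 d, Tbxt-derived cells and FGF Sox2+ cells, differed in culture medium as well as in fate. In CPM, 32 of 87 members were lower in the Tbxt-derived cells and 0 were higher, where 26.5% of all genes were lower and 21.1% higher. The limma count of lower members was 17 without replicate 1 and 18 without replicate 2 of the FGF Sox2+ cells, 21 without replicate 3 of the Tbxt-derived cells and 21 with median-of-ratios size factors. After division by the sum, 10 members were higher and 8 lower, against 44.6% of all genes. That count of 18 fell to 6 without replicate 2 and to 11 without replicate 1 of the FGF Sox2+ cells, and to 11 without replicate 2 or 3 of the Tbxt-derived cells. Rps27l was again the lowest of the named members relative to the sum. It was at 2722 and 2383 CPM in the FGF Sox2+ cells, above all 3 Tbxt-derived libraries, with a change relative to the sum of -1.19 ± 0.15 (limma adjusted p = 4.04e-05) that held under every alternative. Rps21, of the small subunit, was at 2706 and 3022 CPM against 1832, 1941 and 1846 CPM. It was lower relative to the sum by -0.37 ± 0.09 (limma adjusted p = 0.00407), a call lost without replicate 2 of the FGF Sox2+ cells. Rpl22 was also lower relative to the sum (-0.35), a call lost without either FGF Sox2+ replicate or without replicate 2 or 3 of the Tbxt-derived cells. Per 1000 CPM of the members' sum, Rps21 was at 17.9 and 19.2 in the Sox2+ and DN libraries of the Sox2-derived FGF/CHIR cultures. Tbxt-derived cells held 17.3 to 17.6 and FGF Sox2+ cells 21.2 and 23.9. For Rpl22 these values were 10.6 and 11.4, 9.74 to 11.7, and 13.9 and 12.9. Lower levels of both were thus not particular to Tbxt-derived cells, and the part of the medium was not tested.

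Members higher relative to the sum in the Tbxt-derived cells were led by Rpl10, a large-subunit protein that joins late in assembly. It was at 576, 864 and 829 CPM against 574 and 609 CPM, which overlapped in CPM. Its change relative to the sum was 0.58 ± 0.15 (limma adjusted p = 0.00644), a call lost without replicate 1 of the FGF Sox2+ cells. Rps14 (0.50), Rps10 (0.48) and Rpl28 (0.46) were also higher relative to the sum. All 3 calls were lost without replicate 2 of the FGF Sox2+ cells, the shallowest library, and that for Rpl28 also without replicate 1 or without replicate 3 of the Tbxt-derived cells. Per 1000 CPM of the members' sum, Rps14 was at 56.0 and 46.8 in the Sox2+ and DN libraries of the Sox2-derived FGF/CHIR cultures. Tbxt-derived cells held 52.8 to 54.6 and FGF Sox2+ cells 38.6 and 37.1. For Rps10 these values were 7.67 and 6.54, 6.96 to 8.05, and 5.59 and 5.29. Rpl10 (5.74 and 5.46) and Rpl28 (5.20 and 5.76) in those FGF/CHIR libraries also lay above both FGF Sox2+ libraries.

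Along the Sox2 branch, from 48 h in FGF/CHIR to 7 d in FGF, 19 of 87 members fell and 0 rose in CPM, where 6.51% of all genes fell and 18.2% rose. The median member changed by -0.26 against 0.17 for all genes, and 82 of 87 had a negative sign. The count of 19 fell to 2 and 7 without replicates 1 and 2 of the 48 h Sox2 cells and to 9 and 1 without replicates 1 and 2 of the FGF Sox2+ cells. Scaling by median-of-ratios size factors, which set the median change of all genes to 0.01, moved the count to 42 fallen and 0 risen; the share of rises among all calls moved from 73.7% to 55.8%. With no filter on low values 10 fell. Of the 87, 2 were higher and 5 lower relative to the sum, against 34.2% of all genes. That count fell to 1 and 0 without replicates 1 and 2 of the 48 h Sox2 cells and to 3 and 0 without replicates 1 and 2 of the FGF Sox2+ cells, so these departures rest on all 4 libraries.

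The named members of this comparison were all modest in size except Rpl39l. Rps28, of the small subunit, was at 1283 and 1099 CPM at 48 h and at 1181 and 1442 CPM at 7 d, and its change relative to the sum was 0.44 ± 0.12 (limma adjusted p = 0.0145). Rplp0, the anchor of the P stalk, was at 2782 and 2758 CPM and then at 1637 and 1719 CPM, a drop in every library. Its change in CPM was -0.72 ± 0.17 and its change relative to the sum was -0.42 ± 0.13 (limma adjusted p = 0.0295). Rpl23a (0.43), Rps14 (-0.49) and Rps10 (-0.39) also departed from the sum. The departures of Rplp0, Rpl23a, Rps14 and Rps10 were lost without any 1 of the 4 libraries, and that of Rps28 without either 48 h library or without replicate 2 of the FGF Sox2+ cells.

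Between the early groups few members passed the test. For 48 h Sox2 cells against NMPs, limma called 0 members in CPM, where 2.65% of all genes were higher and 5.27% lower, and 0 relative to the sum, against 5.64% of all genes. At an unadjusted p under 0.05 there were 2 in CPM and 2 relative to the sum. The median member changed by -0.01, as did the median of all genes, and 49 of 87 had a negative sign. In 81 of 87 members the change lay within 0.25 of that of the sum. For 48 h Tbxt cells against 48 h Sox2 cells limma again called 0 in CPM (2.05% of all genes higher, 1.85% lower) and 0 relative to the sum (2.91% of all genes), with 28 and 15 members at an unadjusted p under 0.05. Here the median member changed by -0.20 against 0.02 for all genes, and 66 of 87 had a negative sign. Leaving out replicate 1 of the 48 h Tbxt cells gave 6 members in CPM, and leaving out replicate 1 of the 48 h Sox2 cells gave 1 on either scale.

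For 48 h Tbxt cells against NMPs, 7 of 87 members fell in CPM and 0 rose, where 10.5% of all genes fell and 7.82% rose, so the share of members that fell was below that of all genes. They included Rpl11, Rpl28 and Rpl39l. Signs were nevertheless mostly negative, in 79 of 87 members, and the median member changed by -0.24 against -0.02 for all genes. The count was 2 without NMP replicate 1 or 3, 13 without NMP replicate 2, 16 without replicate 1 and 0 without replicate 2 of the 48 h Tbxt cells, and 3 with median-of-ratios size factors. After division by the sum 2 members fell and 0 rose, against 16.3% of all genes; the count was 1 without NMP replicate 1 or 3, 4 without replicate 1 and 0 without replicate 2 of the 48 h Tbxt cells. The 2 were Rpl39l and Rpl28, and Rpl28 was at 822, 668 and 768 CPM in NMPs against 597 and 385 CPM. The groups did not overlap, but its change relative to the sum of -0.47 ± 0.14 (limma adjusted p = 0.0354) was lost without NMP replicate 1 or 3 or replicate 2 of the 48 h Tbxt cells.

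**Figure D3:**
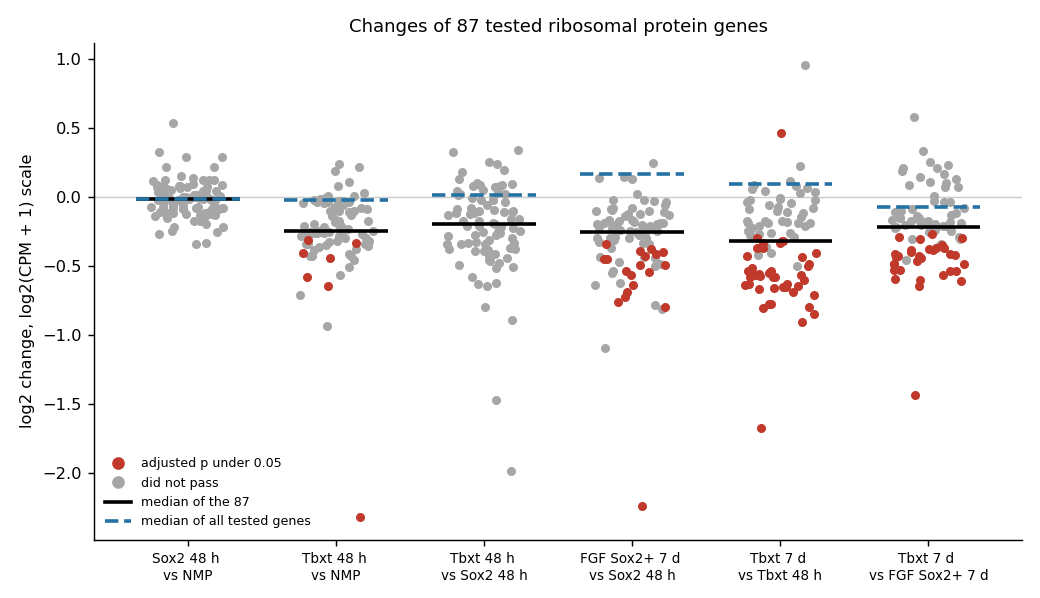
Change of each of the 87 tested members in the 6 comparisons, as log2 difference in CPM (y axis); points are members, red where the adjusted p was under 0.05; black lines are medians of the members and dashed lines medians of all tested genes. In 7 d against 48 h Tbxt-derived cells 41 members fell and the medians were -0.31 and 0.09, with Rps27l at -1.67 as the lowest member.

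Over the 5 groups with 2 or more libraries, limma's moderated F test called 72 of 87 members in CPM, against 72.7% of all genes, and 26 of 87 relative to the sum, against 75.9% of all genes. Division by the sum holds the members near 0 and shifts other genes, so the shares relative to the sum are not a like comparison. The count of 26 was 17 without replicate 2 of the 7 d Tbxt-derived cells. The members with the largest F relative to the sum were led by Rps27l (adjusted p = 1.6e-05), followed by Rpl28 and Rpl39l. Members were measured more precisely than most genes, with a median SE of 0.128 to 0.141 over the comparisons against 0.231 to 0.253 for all genes. The change relative to the sum from 48 h to 7 d differed between the Tbxt branch and the Sox2 branch in 14 of 87 members, against 28.7% of all genes, by an interaction term in the same fit; the count was 2 without replicate 2 of the 48 h Sox2 or of the 48 h Tbxt cells, and the branches also differ in medium.

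By role within the ribosome, the proteins of the peptide exit tunnel and its rim (Rpl4, Rpl17, Rpl19, Rpl22, Rpl23a, Rpl26, Rpl31, Rpl35 and Rpl39) fell in CPM in 8 of 9 cases in the Tbxt branch (median -0.54), in 5 of 9 between the 7 d end points (median -0.38) and in 1 of 9 along the Sox2 branch (median -0.19). All members gave 41, 32 and 19 of 87 and all genes 23.5%, 26.5% and 6.51% in the same comparisons. Downward departures from the sum were 2, 1 and 0 of the 9, so nothing particular to this group is read from the counts. Of these, Rpl22 went from 1743 and 1939 CPM in 48 h Tbxt cells to 1228, 1122 and 1024 CPM in 7 d Tbxt-derived cells. The libraries did not overlap, and its change in CPM was -0.71 ± 0.11 (limma adjusted p = 0.000102). Of the 4 proteins at the mRNA entry and decoding sites (Rps2, Rps3, Rps15 and Rps23), 2 fell in the Tbxt branch, 1 fell along the Sox2 branch and 1 was lower in Tbxt-derived than in FGF Sox2+ cells at 7 d, and these shares were not tested against those of all members.

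The P stalk, made of Rplp0, Rplp1 and Rplp2, recruits the translation factors that hydrolyse GTP. In the Tbxt branch Rplp0 alone of the 3 passed the test, at 2547 and 2121 CPM and then at 1277, 1661 and 1544 CPM. The groups did not overlap, with a change in CPM of -0.65 ± 0.16 (limma adjusted p = 0.00411), a call lost without replicate 1 of the 48 h Tbxt cells (adjusted p = 0.0545). Rplp1 and Rplp2 changed in CPM by -0.26 and -0.19 and did not pass. Between the 7 d end points Rplp1 alone passed, at -0.54 ± 0.14 in CPM (limma adjusted p = 0.00737), lost without replicate 2 of the FGF Sox2+ cells (adjusted p = 0.107).

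Rpl5 and Rpl11 bind 5S ribosomal RNA in a particle that can hold back Mdm2, the ligase that degrades p53. Rpl5 was at 2966 and 2661 CPM in 48 h Tbxt cells and at 1693, 1824 and 1717 CPM in 7 d Tbxt-derived cells. It fell in CPM by 0.69 on the log2 scale (SE 0.10, limma adjusted p = 0.000107), with no overlap. Rpl11 was at 1122 and 895 CPM and then at 945, 929 and 900 CPM, so its libraries overlapped, with a change in CPM of -0.12 ± 0.11. Measured against the sum, the partners went in opposite directions, Rpl5 by -0.29 and Rpl11 by 0.28, both past the threshold. The call for Rpl5 was lost without either 48 h Tbxt replicate (adjusted p = 0.0535 and 0.0534). That for Rpl11 was lost without replicate 2 of the 48 h Tbxt cells (adjusted p = 0.21), without replicate 1 or 3 of the 7 d cells (adjusted p = 0.0858 and 0.0676) and with the median member as reference (adjusted p = 0.122).

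Rpl38, Rpl24 and Rps7 are the members in which mutation of 1 allele is known to alter the axial skeleton of the mouse. Rpl38 was at 1348 and 1418 CPM in 48 h Tbxt cells and at 927, 1056 and 829 CPM in 7 d Tbxt-derived cells, without overlap. It changed in CPM by -0.57 ± 0.13 (limma adjusted p = 0.00297). Rps7 went from 2255 and 2182 CPM to 1634, 1722 and 1605 CPM, a change in CPM of -0.42 ± 0.10 (limma adjusted p = 0.00341). Rpl24 changed in CPM by -0.18 ± 0.11 and did not pass. Between the 7 d end points Rpl24 and Rpl38 were lower in CPM in the Tbxt-derived cells and passed, and Rps7 did not. Rpl24 was at 434, 513 and 454 CPM there against 563 and 625 CPM in FGF Sox2+ cells. By limma 0 of the 3 departed from the sum in any of the 6 comparisons, also 0 at an unadjusted p under 0.05, and in NMPs, 48 h Sox2 cells and 48 h Tbxt cells Rpl38 lay between 1141 and 1493 CPM with overlapping libraries.

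Of the 7 paralogs of other members, 5 were tested, and their level is given as a percentage of the CPM of the partner gene. This percentage is not corrected for length, so only its change between groups is read. Rps27l was at 111% ± 11.8 (SD, n = 3) of Rps27 in NMPs, 152% ± 4.96 (SD, n = 2) in 48 h Sox2 cells, 135% ± 20.2 (SD, n = 2) in 48 h Tbxt cells and 123% ± 3.19 (SD, n = 2) in 7 d FGF Sox2+ cells. In the single libraries it was at 124% in Sox2+ cells and 100.2% in DN cells of the FGF/CHIR cultures and at 134% in DN cells of the FGF cultures. In 7 d Tbxt-derived cells it was at 51.4% ± 2.94 (SD, n = 3), where no library came near the next lowest, and Rps27 itself changed in CPM by -0.29 ± 0.16 against 48 h Tbxt cells without passing the test. The CPM of Rps27l itself was 1771 and 1975 in the Sox2+ and DN libraries of the FGF/CHIR cultures. Per 1000 CPM of the members' sum this was 13.7 and 15.1. These values lay above the 7.39 to 10.4 of Tbxt-derived cells and below every library of the remaining groups, the lowest at 17.2.

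Rpl22l1, the paralog of Rpl22, ran from 22.3% to 39.3% of it, with group means of 25.4% ± 1.78 (SD, n = 3) in NMPs and 35.3% ± 4.80 (SD, n = 3) in 7 d Tbxt-derived cells. In the Tbxt branch both fell in CPM, Rpl22l1 by 0.66 on the log2 scale (SE 0.14, limma adjusted p = 0.00151), and the ratios overlapped (33.9% ± 0.753 (SD, n = 2) in 48 h Tbxt cells). Rpl39l, the paralog of Rpl39 best known from the testis, was low throughout. It was at 24.3, 28.2 and 20.7 CPM in NMPs, 11.4 and 31.2 CPM in 48 h Sox2 cells, 5.10 and 3.18 CPM in 48 h Tbxt cells, 4.14 and 2.50 CPM in 7 d FGF Sox2+ cells and 0.87, 3.96 and 4.81 CPM in 7 d Tbxt-derived cells. The NMP libraries were thus above every library of the 48 h Tbxt cells and of both replicated 7 d groups. Relative to the sum it fell from NMPs to 48 h Tbxt cells by 2.15 on the log2 scale (SE 0.51, limma adjusted p = 0.0145), lost without replicate 2 of the 48 h Tbxt cells (adjusted p = 0.168). From 48 h Sox2 to 7 d FGF Sox2+ cells its change relative to the sum was -1.97 ± 0.56 (limma adjusted p = 0.0183), lost without replicate 2 of either group; replicate 2 of the FGF Sox2+ cells lies under the 3-read limit for this gene. Rpl7l1 stayed at 3.54% to 5.77% of Rpl7, and Rps4l ran from 6.87% to 32.2% of Rps4x with the 2 FGF Sox2+ libraries at 28.8% and 6.87%, so no order of groups can be read from it.

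**Figure D4:**
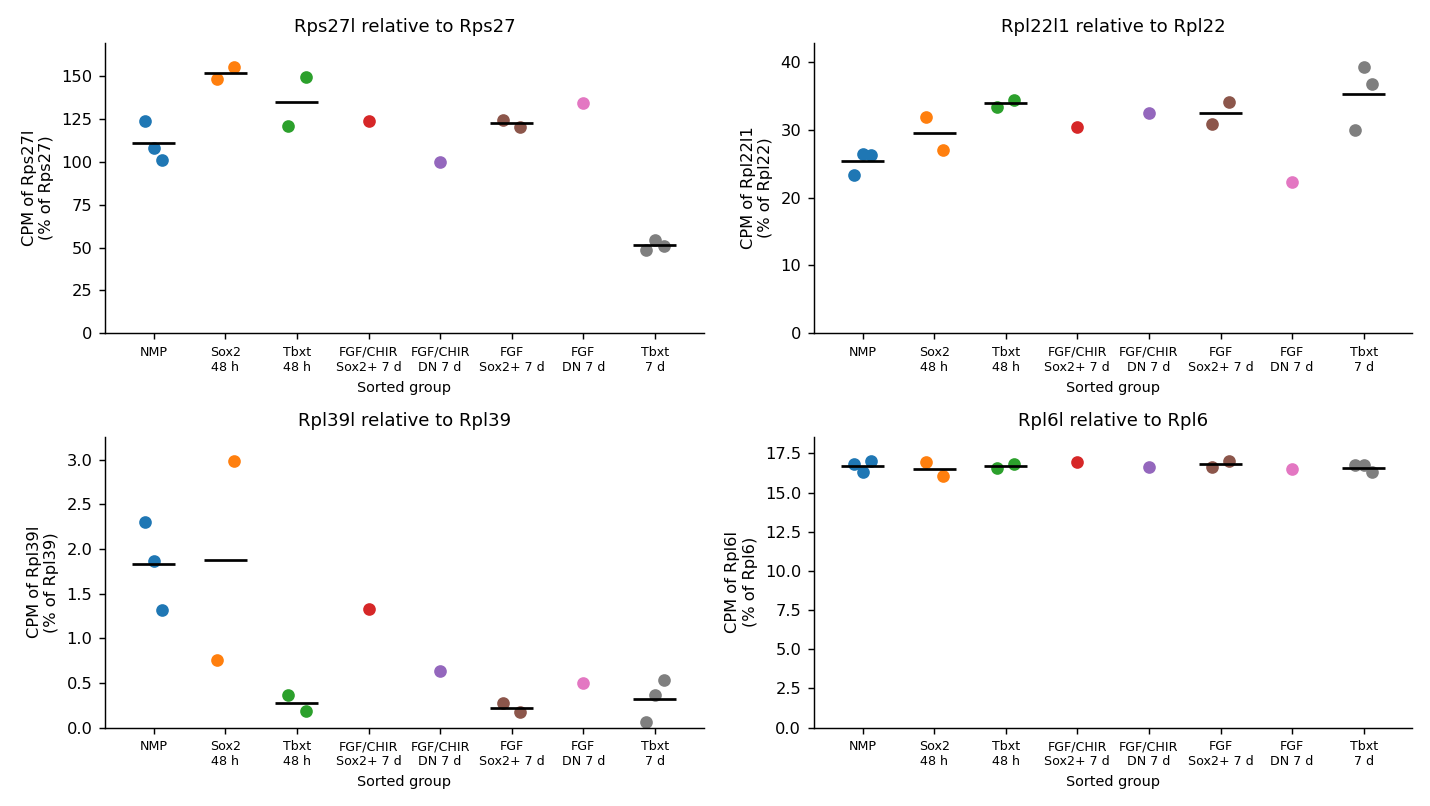
CPM of Rps27l, Rpl22l1, Rpl39l and Rpl6l as a percentage of the CPM of Rps27, Rpl22, Rpl39 and Rpl6 (y axes, from 0) in the 8 groups (x axis); points are libraries and horizontal lines are means of groups with 2 or more. Rps27l lies at 48.8% to 54.6% of Rps27 in 7 d Tbxt-derived cells and at 100.2% to 156% elsewhere, while Rpl6l stays at 16.1% to 17.0% of Rpl6 in all 15 libraries.

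Some rows moved almost in step with a near-identical gene, and their own level is uncertain. Rpl6l was at 16.1% to 17.0% of Rpl6 in the 15 libraries, Rps12l1 at 1.13% to 1.28% of Rps12, Rps3a1 at 20.6% to 24.2% of Rps3a3 and Rps3a2 at 13.9% to 17.9% of Rps3a3. The member counts take such rows as separate genes. Rpl6 and Rpl6l, and Rps12 and Rps12l1, are all among the 41 members that fell in the Tbxt branch. Rows named as pseudogenes of members numbered 321, belonged to 64 members and held 1.20% to 2.08% of all CPM. For single members their share of the gene's CPM with these rows included varied widely. It was 43.7% for Rpl10, 35.5% for Rps10, 31.2% for Rps16 and 20.5% for Rpl28, but 0.361% for Rpl12 and 0% for Rps27l. In 84 of 89 members the CPM was a whole multiple of 1 read in fewer than 8 of the 15 libraries, and in 1 member it was whole in all 15 (tolerance 0.01 read). Adding the pseudogene rows to their members did not move any member count by more than 1.5 times.

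Ribosomal components outside the name rule were looked at beside the members: Fau, which encodes a ribosomal protein fused to a ubiquitin-like protein, Rack1, a scaffold on the small subunit, and Rpl36al. In the Tbxt branch Rpl36al went from 240 and 267 CPM to 120, 144 and 118 CPM. It fell by 0.99 on the log2 scale (SE 0.13, limma adjusted p = 3.39e-05) while Fau and Rack1 did not pass. Along the Sox2 branch Fau and Rack1 fell by 0.81 and 0.47 on the log2 scale, and the fall of Rack1 was lost without any 1 of the 4 libraries (adjusted p = 0.0699 to 0.152).

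Genes that make or control ribosomes were more affected than the ribosomal proteins in the Tbxt branch. Of 27 nucleolar and ribosome biogenesis genes, 27 fell there (median -1.81), 24 were lower in Tbxt-derived than in FGF Sox2+ cells at 7 d (median -1.23), and 13 fell along the Sox2 branch (median -0.50). The last count was 6 and 2 without replicates 1 and 2 of the 48 h Sox2 cells and 6 without replicate 2 of the FGF Sox2+ cells. Of all genes, 23.5% fell in the Tbxt branch, 26.5% were lower between the 7 d end points and 6.51% fell along the Sox2 branch. Limma called 0 of the 27 in the 3 early comparisons, where 1 (48 h Sox2 against NMPs), 5 (48 h Tbxt against NMPs) and 1 (48 h Tbxt against 48 h Sox2) had an unadjusted p under 0.05. In these, 2.65%, 7.82% and 2.05% of all genes were higher and 5.27%, 10.5% and 1.85% lower. Against the ribosomal protein sum, 24 of 27 were lower in the Tbxt branch and 22 of 27 between the 7 d end points. Of all genes, 55% and 44.6% departed from the sum there in either direction. Nhp2, of the RNPs that place pseudouridine in ribosomal RNA, was at 228 and 235 CPM in 48 h Tbxt cells, 276 and 273 CPM in FGF Sox2+ cells and 52.7, 43.8 and 37.7 CPM in 7 d Tbxt-derived cells. These are separate ranges, and the change in the Tbxt branch was -2.36 ± 0.14 (limma adjusted p = 7.2e-08). Ddx21, a nucleolar helicase, changed by -2.75 ± 0.26 and Rrs1, which brings the 5S particle into the large subunit, by -2.47 ± 0.23.

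Subunits and factors of RNA polymerases I and III, which transcribe ribosomal and 5S RNA, fell in 8 of 10 cases in the Tbxt branch (median -0.999; 5 without replicate 1 of the 48 h Tbxt cells) and were lower in 8 of 10 between the 7 d end points (median -0.62; 5 without either FGF Sox2+ replicate). Along the Sox2 branch 4 of 10 fell. All genes gave 23.5%, 26.5% and 6.51% lower in the same comparisons. Polr3g, the variant subunit of polymerase III in stem cells, was at 43.9 and 62.8 CPM in 48 h Tbxt cells and at 8.74, 13.9 and 10.0 CPM in 7 d Tbxt-derived cells. Of 6 genes of the Myc network, a major driver of ribosome genes, 3 fell and 1 rose in the Tbxt branch. There 23.5% of all genes fell and 30.7% rose. Myc was at 54.2 and 108 CPM and then at 10.5, 0.990 and 1.05 CPM, a change of -4.43 ± 0.66 (limma adjusted p = 0.000318). Mycn fell by 3.73 on the log2 scale, and Mxd4, which opposes Myc, rose by 2.46. Along the Sox2 branch Mycn and Mycl rose, by 1.85 and 1.74; the rise of Mycn was lost without replicate 2 of the 48 h Sox2 cells (adjusted p = 0.0729).

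Of 15 translation factors and other genes whose mRNAs are TOP-regulated, 7 fell and 1 rose in the Tbxt branch, and the median was -0.08. Of all genes, 23.5% fell and 30.7% rose in that branch, and 6.51% fell along the Sox2 branch. Pabpc1, the poly(A)-binding protein, fell by 1.48 and Eif3e, an initiation factor, by 0.90 on the log2 scale. Vim, the intermediate filament of mesenchymal cells, was the gene that rose, by 2.13. Along the Sox2 branch 7 fell, a count of 0 to 4 without any 1 of the 4 libraries. Of 5 genes of the p53 response, Ccng1, Cdkn1a and Trp53 fell in the Tbxt branch, against 23.5% of all genes. Ccng1 fell by 1.56 on the log2 scale, with 401 and 564 CPM against 240, 143 and 122 CPM. The fall of Cdkn1a was lost without either 48 h Tbxt replicate. Between the 7 d end points Ccng1, Mdm2 and Trp53 were lower. Along the Sox2 branch Phlda3 and Cdkn1a changed in CPM by -2.37 and -1.45 (limma adjusted p = 0.000358 and 0.0132). Relative to the sum they changed there by -2.07 and -1.15, and Rps27l by -0.03. The CPM of Rps27l went from 3534.5 and 2900 at 48 h to 2722 and 2383 at 7 d. Phlda3 also differed in CPM by -1.76 between 48 h Tbxt and 48 h Sox2 cells. A link of these genes to Rps27l was not tested.

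The 23 members that were higher and the 10 that were lower relative to the sum in the Tbxt branch were of both subunits. The large subunit gave 10 of the higher and 7 of the lower members, and the small subunit 13 and 3. The 13 include Rps3a1, Rps3a2 and Rps3a3, near-identical rows that moved almost in step. Among members with a promoter window, a pyrimidine run through the start was found in 5 of 18 higher members, 1 of 9 lower members and 14 of 35 members that did not depart. These shares are descriptions of the listed starts.

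Members also differed between libraries of 1 group, in a pattern that ran along with the departures. Between NMP replicates 1 and 2, which took 16.9% and 14.6% of CPM, the log2 difference of a member ranged from -0.52 to 1.79 with a median of 0.20, and 18 of 87 exceeded 0.5. The extremes, singled out after their values were seen, were Rpl39 at the low end and Rpl29 and Rpl18 at the high end. Rpl18, of the large subunit, was at 1306, 600.3 and 773 CPM in the NMP libraries and at 763 and 427 CPM in 48 h Tbxt cells, so libraries of 1 group differed as much as the groups did. Rpl29 was at 3.08 to 26.1 CPM in the 15 libraries and passed in 0 of the 6 comparisons by limma on either scale. Across the 87 members this difference had Pearson's r of 0.82 (Spearman's rho 0.78) with that between the 2 libraries of 48 h Tbxt cells, and r of -0.45 (rho -0.63) with that between the 2 libraries of 48 h Sox2 cells. These are descriptions across genes, which are not independent replicates, and the points share library depth and base composition. With the share of G and C in the transcript (81 members with a value, from GENCODE vM21) r was 0.51 (rho 0.48).

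The change relative to the sum in the Tbxt branch had r of 0.61 (rho 0.61) with the NMP replicate difference. Of the 23 members higher in that branch, 19 lay above the median NMP difference, against 1 of the 10 lower members. Between the 7 d end points r was 0.56 (rho 0.57), with 9 of 10 higher and 2 of 8 lower members above that median. Along the Sox2 branch r was -0.51 (rho -0.67). Rps27l changed in the Tbxt branch by far more than the NMP replicates differed (2902 and 2862 CPM). The part of this within-group pattern in the departures was not tested.

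**Figure D5:**
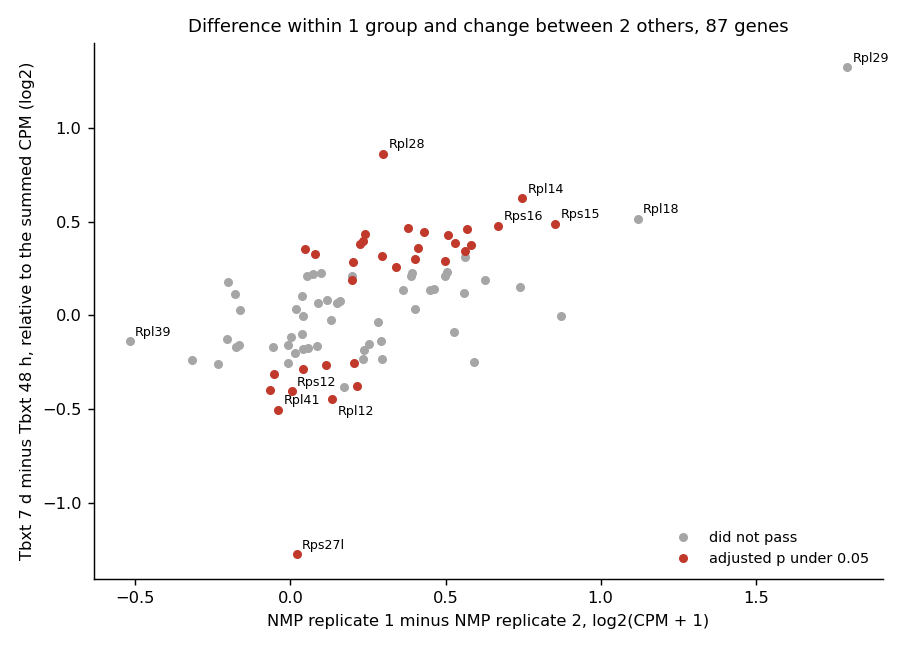
Log2 difference in CPM between NMP replicates 1 and 2 (x axis) against the change relative to the sum from 48 h to 7 d in Tbxt-derived cells (y axis, log2) for the 87 members; points are members, red where they departed from the sum (adjusted p under 0.05). Of the 23 members higher relative to the sum, 19 lie right of the median of 0.20, and Rps27l lies lowest on the y axis.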

How the data were processed

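RNA-seq of 15 libraries in 8 sorted groups was analysed from 1 table. The authors deposited CPM per gene, that is counts scaled so that each column summed to 1000000. Per the labels' protocols, total RNA was extracted on beads and made into oligo-dT libraries with molecular identifiers by tagmentation, and per the submitters' processing notes GRCm39, STAR 2.7 and SAMtools 1.21 were used; how reads matching several genes were counted is not given in the sources used here. Libraries were mapped to groups by their titles, with 0 unmapped columns. Of 78409 rows, 21909 had no gene name and 92 were spike-ins. Between 71.1% and 78.7% of values in a library were whole multiples of 1 read, so reads were not recovered and no count test was run.

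The members and gene lists were chosen with earlier results of these data known. Log2(CPM + 1) was fitted with limma 3.58.1 (trend, robust; R 4.3.3, statmod 1.5.0) over 15 libraries with 7 residual degrees of freedom, two-sided, for genes of at least 5 CPM in at least 2 libraries. Named were the members of the paralog, partner, P stalk, 5S and axial skeleton lists. Also named were up to 4 members per comparison and direction with the largest change relative to the sum. These came from members past the threshold, without overlap and with a mean of at least 20 CPM. From each other list up to 3 genes per comparison were named. Rps18, Rpl18, Rpl29, Rpl30, Rps9 and the exit tunnel and mRNA entry names were added after their values were seen. Some genes that fall under these rules are not reported here. Alternatives were pseudocounts of 0.25 and 4, no filter or 20 CPM, median-of-ratios size factors, pseudogene rows added, the median member as reference, a replicate block and leaving out each library. For the sum, scaling to named nuclear genes was a further alternative. The test of the difference between branches was added after the data were seen. The fits were tested on simulated data. Tables and figures were made with Python 3.11.15, numpy 2.4.6, pandas 2.3.3 and matplotlib 3.10.9.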

Additional observations from a re-analysis of the deposited data

Results flagged for a closer look

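The change relative to the sum from 48 h to 7 d was set against itself in the 2 branches, Tbxt-derived in FGF/CHIR minus Sox2-derived in FGF, by an interaction term in the limma fit. It passed for 14 of 87 members, 11 positive and 3 negative, against 28.7% of all genes, and the branches differ in medium as well as in fate. The count was 2 without replicate 2 of the 48 h Sox2 cells or replicate 2 of the 48 h Tbxt cells, 7 without either FGF Sox2+ replicate, 8 and 6 without replicates 2 and 3 of the 7 d Tbxt-derived cells, and 23 and 25 without replicate 1 of the 7 d Tbxt-derived or the 48 h Tbxt cells. Rps27l had the more negative change in the Tbxt branch, with a difference of -1.25 ± 0.23 (SE, limma adjusted p = 0.00151), and was the 1 named member whose call held under all 16 alternatives. Rpl41 differed in the same direction by -0.55 (limma adjusted p = 0.0404). Outside the naming rule, and singled out after their values were seen, Rpl30 differed by -0.67 (limma adjusted p = 0.0121) and Rps9 by 0.66 (limma adjusted p = 0.00568). The small-subunit genes Rps16 and Rps15 differed by 0.81 each (adjusted p = 0.0172 and 0.0378), Rps14 by 0.68 (adjusted p = 0.025) and Rps10 by 0.62 (adjusted p = 0.0266). The large-subunit genes Rpl28, Rpl14 and Rpl10 differed by 0.74, 0.69 and 0.68 (adjusted p = 0.0179, 0.0363 and 0.0347).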

How the results depend on the processing

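No tested call reversed under the alternatives run; the sum of 48 h Sox2 cells against NMPs, which was not tested, changed sign with the library left out. Leaving out each library gave log2 ratios of the sum of -0.11 to 0.05 (48 h Sox2 against NMPs), -0.26 to -0.10 (48 h Tbxt against NMPs), -0.23 to -0.06 (48 h Tbxt against 48 h Sox2), -0.38 to -0.22 (Sox2 branch), -0.48 to -0.32 (Tbxt branch) and -0.28 to -0.22 (7 d end points). With median-of-ratios size factors, which moved the median of all genes by -0.16 in the Sox2 branch, the sum changed by -0.48 there and by -0.50 in the Tbxt branch. Members called in CPM numbered 0 to 16 (48 h Tbxt against NMPs), 0 to 6 (48 h Tbxt against 48 h Sox2), 1 to 9 (Sox2 branch), 31 to 41 (Tbxt branch) and 17 to 30 (7 d end points) when each library was left out, and members departing from the sum 0 to 4, 0 to 1, 0 to 3, 7 to 35 and 6 to 18. Median-of-ratios factors gave 3 called for 48 h Tbxt against NMPs, 42 in the Sox2 branch and 21 between the 7 d end points. A pseudocount of 4 or a filter at 20 CPM gave 1 called for 48 h Tbxt against 48 h Sox2, and that filter 1 departing. With no filter on low values 10 were called in the Sox2 branch, and 0 (48 h Tbxt against NMPs), 1 (Sox2 branch), 19 (Tbxt branch) and 11 (7 d end points) departed. The F test gave 17 to 34 members without 1 library, and the test between branches 2 to 25, or 5 with no filter. Replicate numbers did not pair the samples: over 21 same-number pairs the correlation of deviations ran from -0.19 to 0.48, with 4 over 0.1 and 9 under -0.1. A replicate block gave 2 called and 1 departing (48 h Tbxt against NMPs), 12 called and 4 departing (Sox2 branch), 19 departing (Tbxt branch), 17 in the F test and 8 in the test between branches; it ended the departures of Rpl28 (48 h Tbxt against NMPs, adjusted p = 0.0814), Rplp0 and Rps10 (Sox2 branch, 0.0518 and 0.0622), Rpl22 (7 d end points, 0.0827) and Rpl11 (Tbxt branch, 0.0589). Of 24 named departures 4 held under every alternative, those of Rps27l in both comparisons and of Rpl28 and Rpl12 in the Tbxt branch, and of 98 named changes in CPM 47 held. Where a count moved with the filter, the number of genes tested differed; otherwise the cause was not tested. Depth limits the low copies Rpl39l, Rpl10l and Rpl3l, above all in the library of 0.799 M reads.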
